A study of Mus musculus with 19 samples.

Results

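Loss of the DNA methyltransferase Dnmt3a was examined in granulocyte-monocyte progenitors (GMP), the bone marrow cells that give rise to neutrophils and monocytes. The comparison holds every array whose title names a Dnmt3a-/- GMP sample (3 arrays) or a Wild-Type GMP sample (4 arrays), which is 7 of the 19 arrays of the series, and all 15781 genes with a value. Both groups are mice of strain C57Bl/6J with cells sorted from whole bone marrow, and they differ in the labels by genotype and title number. The numbers were 22299, 22301 and 22303 for Dnmt3a-/- GMP and 21986, 21988, 22011 and 22012 for wild-type GMP. What they stand for is not given, and genotype cannot be told apart from the range of numbers. For comparison, 3 arrays of Dnmt3a-/- common myeloid progenitors (CMP, the stage before GMP) and 3 of wild-type CMP of the same strain were used, as were 4 arrays of PR+/-, Dnmt3a-/- GMP and 2 of PR+/- GMP. The labels do not spell out PR, taken here from the series title to mean the PML-RARA fusion gene of acute promyelocytic leukaemia, and the labels of the PR+/- arrays give no strain. The age of the mice, the construction of the Dnmt3a-/- and PR+/- alleles, and whether each array is a separate animal or a pool are not given in the sources used here, so the p-values measure the spread between these arrays only.

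Dnmt3a adds methyl groups to unmethylated cytosines in DNA, most often where a cytosine precedes a guanine, while Dnmt1 copies existing marks when DNA is replicated. Methylated promoters and enhancers are often less active, and DNMT3A is among the genes most often mutated in human myeloid leukaemia. GMP express the genes of the primary granules that neutrophils carry, and basophils, mast cells, eosinophils and some dendritic cells also descend from progenitors found within or near the GMP sort gate. RNA was measured on exon arrays, and a level below is the mean log2 intensity of the probe sets of a gene, so that a difference of 1 is a doubling. Levels of different genes are not comparable, since probe sets differ in brightness, and DNA methylation itself was not measured.

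Dnmt3a RNA was 6.06, 6.11 and 6.22 on the Dnmt3a-/- GMP arrays, against 7.47, 7.39, 7.30 and 7.59 on the wild-type GMP arrays. The genotypes did not overlap, and the level was 1.31 ± 0.13 lower on the log2 scale (SE, 3 against 4 arrays; limma adjusted p = 3.87e-04). Of its 31 probe sets, 26 were lower, 16 of them with no overlap between the genotypes, and the steepest single decrease was -4.72, so the decrease was uneven over the probe sets. Whether the others read remaining transcript was not tested. The granule enzyme gene Mpo was at 12.97, 12.97 and 12.94 on the Dnmt3a-/- arrays and at 12.81 to 12.93 on the wild-type arrays, and none of the 6 measured genes of the sort gate (Kit, Cd34, Fcgr3, Fcgr2b, Ly6a and Il7r) passed the test. Of 9 measured GMP genes 1 rose, the repressor Gfi1, but 7 were higher on every Dnmt3a-/- array than on any wild-type array (the genotypes did not overlap, in either direction, in 16.6% of all genes). Their mean level was 10.3 to 10.4 on the Dnmt3a-/- arrays, against 9.92 to 10.2 on the wild-type arrays.

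Arrays also differed in ways that the genotype does not name. The mean of the Y-linked genes Eif2s3y and Kdm5d was 2.54 to 2.91 on the Dnmt3a-/- GMP arrays, against 6.84, 7.04 and 6.95 on wild-type replicates 1 to 3 and 3.25 on replicate 4, so only 1 wild-type array resembles the Dnmt3a-/- arrays in this signal. Y-linked RNA differs between male and female mice, so genotype and sex are nearly confounded on these arrays and cannot be told apart. Stress-responsive genes (immediate early and heat shock) averaged 6.38 to 6.61 on the Dnmt3a-/- arrays, 7.42 and 7.50 on wild-type replicates 1 and 2, and 6.23 and 6.21 on replicates 3 and 4. That split follows the title numbers, 21986 and 21988 against 22011 and 22012. The part of the Y-linked or the stress-responsive signal in the results below was not tested beyond the counts given for it.

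Of the 15781 genes, 210 passed an adjusted p of 0.05 (1.33%), 142 higher in Dnmt3a-/- GMP (0.900%) and 68 lower (0.431%). An unadjusted p below 0.05 was found for 2986 genes (18.9%). The increases were larger than the decreases. The median increase was 1.02, with 77 genes over 2-fold, 16 over 4-fold and 5 over 8-fold, while the median decrease was -0.83, with 23 genes over 2-fold and 1 over 4-fold. The genotypes did not overlap in 209 of the 210 genes, a separation that largely follows from calling them on these arrays. The median level of the higher genes was 7.26 in Dnmt3a-/- GMP and 5.93 in wild-type GMP. The 142 higher genes are read by 1552 probe sets, of which 94.1% were higher in the mean and 56.0% without overlap. The 68 lower genes are read by 768, of which 94.7% were lower and 41.5% without overlap. A gene value is the mean of these probe sets, so their agreement largely follows from calling the genes. The plot of the 25 largest increases shows each array.

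**Figure D1:**
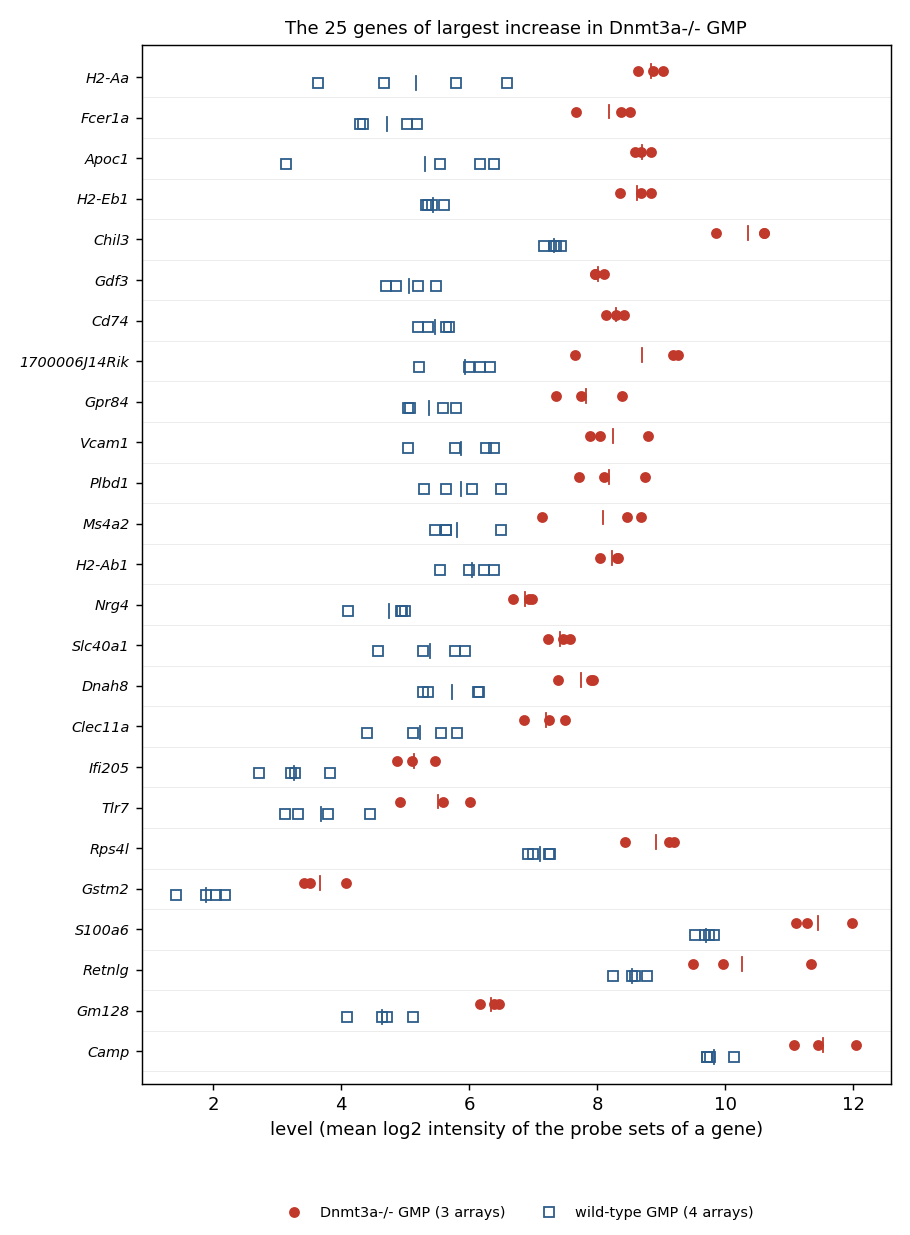
Level of the 25 genes of largest increase (mean log2 intensity of a gene's probe sets, horizontal axis) on the 3 Dnmt3a-/- GMP arrays (filled circles) and the 4 wild-type GMP arrays (open squares), with vertical bars at the group means. Only called genes whose genotypes do not overlap were taken, so all Dnmt3a-/- arrays lie above all wild-type arrays by that choice. The changes run from H2-Aa (3.67) to Camp (1.70).

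H2-Aa, the gene of largest increase, and 3 others of the top 25 belong to antigen presentation on MHC class II. Class II molecules pair an alpha and a beta chain, travel with the invariant chain Cd74 and show peptides to helper T cells, and the master regulator Ciita drives them through an X box and a Y box upstream of each gene. The upstream 180 bases of the 2 class II chains with a promoter entry in RefSeq (GRCm38.p6) are shown because both genes rose together and share the Y box letters. H2-Aa lies on the minus strand at chr17:34287824-34288003 and H2-Eb1 on the plus strand at chr17:34305687-34305866, with capitals marking the Y box core CTGATTGG and the X box core TAGCAAC, each searched on both strands.
H2-Aa: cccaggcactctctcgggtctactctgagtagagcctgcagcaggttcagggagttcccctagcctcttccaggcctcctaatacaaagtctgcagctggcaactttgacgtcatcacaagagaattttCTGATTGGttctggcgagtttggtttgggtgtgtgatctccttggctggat
H2-Eb1: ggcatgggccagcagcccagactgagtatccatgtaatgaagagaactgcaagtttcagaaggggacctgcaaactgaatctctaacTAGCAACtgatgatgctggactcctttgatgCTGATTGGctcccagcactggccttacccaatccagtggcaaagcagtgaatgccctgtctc
The Y box core starts 51 bases before the annotated start of H2-Aa and 62 bases before that of H2-Eb1, where the X box core starts 93 bases before. Only these exact letters were searched, so the missing mark is no evidence that H2-Aa lacks an X box. The Y box letters occur in 5.76% of 12609 promoters of 300 bases and the X box letters in 3.86%, and among the 109 higher genes with an entry in 10 and 5.

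H2-Aa, the alpha chain, was at 8.64, 9.02 and 8.87 on the Dnmt3a-/- arrays, against 6.59, 3.63, 5.80 and 4.67 on the wild-type arrays. The wild-type arrays were widely spread and all below, and the increase was 3.67 ± 0.53 (SE; 12.7-fold; limma adjusted p = 0.00441). H2-Eb1, a beta chain, was at 8.35, 8.69 and 8.84, against 5.61, 5.33, 5.36 and 5.41 in wild type, a narrow spread in both genotypes and an increase of 3.20 ± 0.26 (adjusted p = 1.40e-04). Cd74 was at 8.14, 8.30 and 8.42, against 5.69, 5.64, 5.35 and 5.20 in wild type (2.82 ± 0.27, adjusted p = 3.87e-04). H2-Ab1, the beta chain that pairs with H2-Aa, was at 8.05, 8.32 and 8.31, against 6.23, 5.54, 6.39 and 6.00 (2.19 ± 0.30, adjusted p = 0.00352). These 4 were the members that rose among 16 measured class II genes (0.900% of all genes rose). None was called lower, and the list median was 0.17, where the median of all genes was -0.07.

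The genes that load or regulate class II did not pass. Ciita was at 4.26, 4.71 and 4.52 in Dnmt3a-/- GMP and at 4.47, 4.41, 4.21 and 4.28 in wild type, so the genotypes overlapped (0.16 ± 0.19). Rfx5, Rfxap and Rfxank, which bind the X box, differed by -0.20, 0.18 and 0.18, and the peptide editors H2-DMa, H2-DMb1 and H2-Oa by -0.27, 0.48 and 0.69. Of 17 measured genes of conventional dendritic cells, which carry much class II, Id2 alone passed and rose. Their mean level was 5.23 to 5.44 on the Dnmt3a-/- arrays and 4.96 to 5.11 on the wild-type arrays, without overlap. The integrin Itgax differed by -0.18 and the transcription factor Zbtb46 by -0.48, whereas Clec9a, a receptor for dying cells, averaged 4.98 ± 0.47 on the Dnmt3a-/- arrays and 3.77 ± 0.31 on the wild-type arrays (SD, n = 3 and 4) without passing (1.21 ± 0.35, adjusted p = 0.102). No member of the B cell list (13 measured) or the plasmacytoid dendritic cell list (11) passed. The part of such cells in the class II increase was not tested. All 4 class II calls stood in the 7 fits that each left out 1 GMP array, but taking the median rather than the mean of the probe sets left H2-Aa (3.49, adjusted p = 0.0524) and H2-Ab1 (1.43, adjusted p = 0.134) short of the threshold.

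Genes of basophils and mast cells, which bind IgE and release histamine and lipid mediators, were also among the increases. Fcer1a, the IgE-binding chain, was at 8.51, 8.37 and 7.67 in Dnmt3a-/- GMP, against 4.34, 5.02, 5.19 and 4.29 in wild type. All Dnmt3a-/- arrays lay far above the wild-type arrays (3.47 ± 0.43, 11.1-fold, adjusted p = 0.00220). Ms4a2, the beta chain of the same receptor, was at 8.68, 8.46 and 7.14, against 5.47, 5.63, 6.50 and 5.63 (2.28 ± 0.43, adjusted p = 0.0239), with Dnmt3a-/- replicate 3 nearest to wild type in both genes. The shared gamma chain Fcer1g was at 11.09 to 11.51 and 11.38 to 11.63 and differed by -0.15.

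Of 27 measured genes of this list, 6 rose (0.900% of all genes did) and none fell, with a median of 0.24. Besides the IgE receptor chains these were Alox5, the enzyme that starts leukotriene synthesis (1.64 ± 0.31), Cyp11a1, which makes pregnenolone from cholesterol (1.56 ± 0.24), the transcription factor Gata2 (1.12 ± 0.24) and Slc18a2, which loads amines such as histamine into vesicles (1.05 ± 0.23). Basophil proteases lay above wild type without passing. Prss34 was at 11.60, 11.76 and 11.23, against 9.49, 9.35, 10.05 and 9.63 (1.90 ± 0.48, adjusted p = 0.0716), and Mcpt8 at 11.50, 11.45 and 11.01, against 9.73, 10.46, 9.98 and 9.26 (1.46 ± 0.35, adjusted p = 0.0641). Among proteases of mature mast cells, none of which passed, Cma1 differed by -0.10 and Tpsb2 by -0.42, and Mcpt1 lay under background in both genotypes. The mean level of the list was 6.61, 6.60 and 6.26 on the Dnmt3a-/- arrays, against 5.80, 6.06, 5.88 and 5.73 on the wild-type arrays, and more basophil progenitors and more RNA per cell cannot be told apart in sorted bulk RNA. The calls of Fcer1a and Cyp11a1 stood without any 1 GMP array, those of Ms4a2 and Alox5 were lost without Dnmt3a-/- replicate 1 or 2 or wild-type replicate 1 or 4 (adjusted p up to 0.131), and those of Gata2 and Slc18a2 without the same arrays or wild-type replicate 3 (adjusted p up to 0.205).

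Genes of late neutrophil maturation were higher as well. The list of secondary granule and neutrophil genes had 24 measured members, and its median was 1.11. All 24 had a value above 0, as did 6523 of all 15781 genes. Of the 24, 5 rose (0.900% of all genes did) and none fell. Camp, the precursor of the antimicrobial peptide cathelicidin, was at 12.05, 11.08 and 11.45 in Dnmt3a-/- GMP, against 10.14, 9.71, 9.76 and 9.71 in wild type (1.70 ± 0.32, adjusted p = 0.0239). Chil3, a chitinase-like protein, was at 10.61, 9.86 and 10.61, against 7.44, 7.17, 7.36 and 7.33 (3.04 ± 0.38, adjusted p = 0.00220). Its wild-type arrays lay within a narrow band far below, although probe sets of Chil3 may also read its close relative Chil4. Retnlg, a resistin-like secreted protein, was at 11.34, 9.50 and 9.97, against 8.59, 8.77, 8.54 and 8.25 (1.73 ± 0.37, adjusted p = 0.0373).

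Several other secondary granule genes did not pass, and in Ltf and Mmp8 Dnmt3a-/- replicate 1 stood apart from the other 2. Ltf, lactoferrin, was at 10.09, 8.20 and 7.32 in Dnmt3a-/- GMP, against 7.56, 6.84, 6.98 and 7.05 in wild type (1.43 ± 0.60, adjusted p = 0.231), and the collagenase gene Mmp8 was at 9.04, 7.33 and 7.08, against 7.27, 7.32, 5.93 and 5.95 (1.20 ± 0.58, adjusted p = 0.282). The transcription factor Cebpe, which drives secondary granule genes, was at 9.91, 9.66 and 10.06, against 7.72, 8.36, 8.73 and 8.39, also without passing (1.57 ± 0.60, adjusted p = 0.193). The mean of the list was 9.47 on Dnmt3a-/- replicate 1 and 8.53 and 8.60 on replicates 2 and 3, against 7.63 to 7.91 in wild type. Of 13 primary granule genes 1 rose, Gfi1, at 7.76, 7.75 and 7.92 against 6.87, 6.48, 6.99 and 6.97 (0.98 ± 0.21, adjusted p = 0.0373), and the list median was 0.46. The elastase-like protease gene Prtn3 differed by 0.24 and Ctsg, cathepsin G, by 0.31. The calls of Camp and Retnlg were lost without Dnmt3a-/- replicate 1 or 3 or wild-type replicate 4, that of Retnlg also without wild-type replicate 1 or 3, and that of Gfi1 without any 1 of the 7 arrays (adjusted p up to 0.137).

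S100 proteins bind calcium, and S100a8 and S100a9 together form calprotectin, an abundant neutrophil protein. Of 12 measured S100 genes 5 rose (0.900% of all genes did) and none fell, with a median of 0.58. S100a6 was at 11.98, 11.28 and 11.11 in Dnmt3a-/- GMP, against 9.74, 9.53, 9.83 and 9.69 in wild type (1.76 ± 0.20, adjusted p = 0.00130). S100a4 was at 10.11, 10.22 and 9.52, against 8.59, 8.57, 8.30 and 8.23 (1.53 ± 0.18, adjusted p = 0.00167), again with a gap between the genotypes. S100a1 (1.09 ± 0.20), S100a9 (0.73 ± 0.16) and S100a8 (0.65 ± 0.12) rose by less. S100a3 was lower in every Dnmt3a-/- array without passing (-0.69 ± 0.20, adjusted p = 0.102). The calls of S100a4 and S100a6 stood without any 1 array, that of S100a1 was lost without Dnmt3a-/- replicate 1 or 3, that of S100a8 without Dnmt3a-/- replicate 1 or 2 or wild-type replicate 4, and that of S100a9 unless it was wild-type replicate 2 that was left out (adjusted p up to 0.198).

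**Figure D2:**
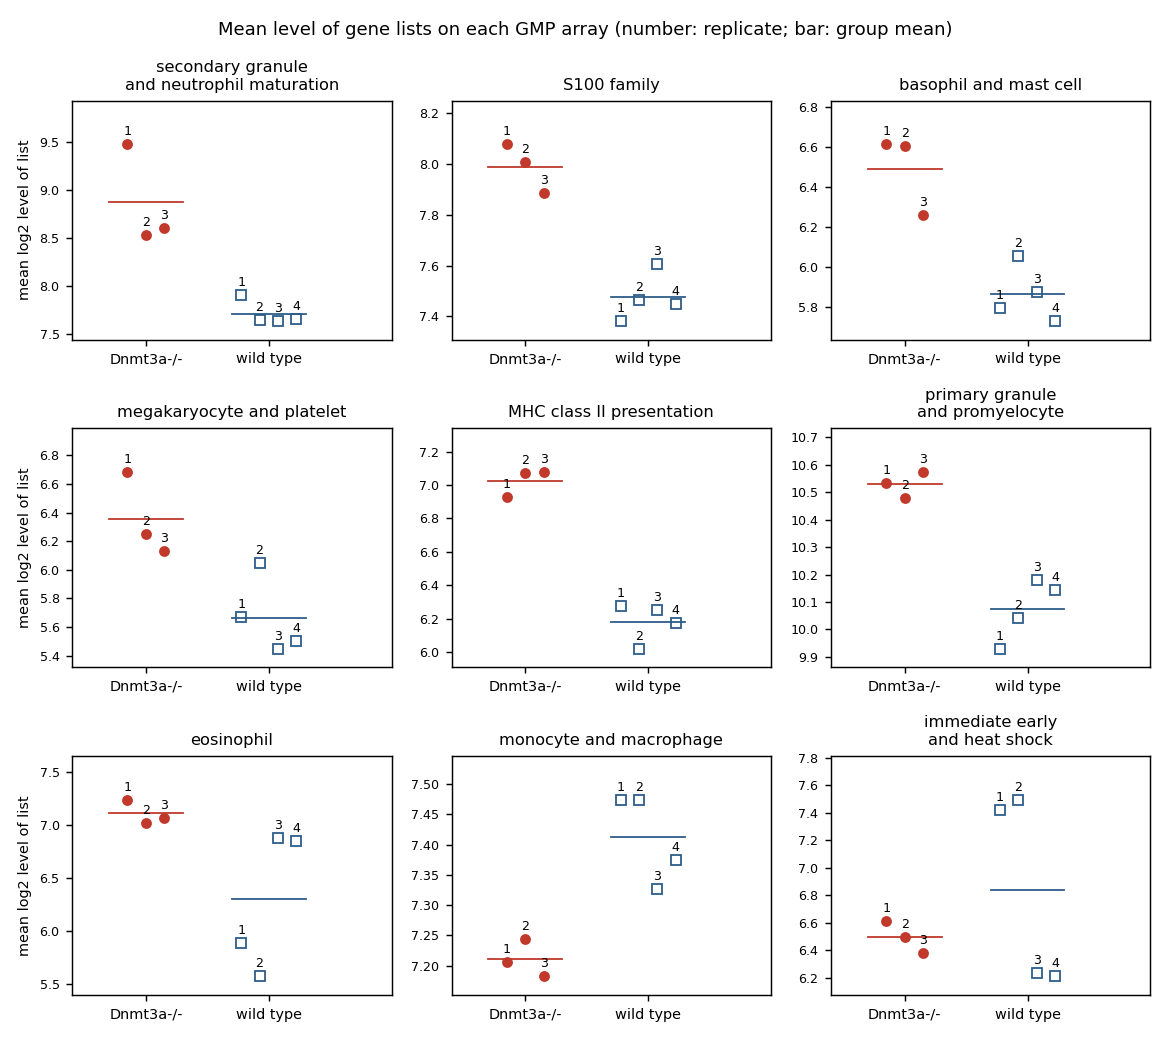
Mean log2 level of the measured members of 9 gene lists (vertical axes, each with its own range that does not start at 0) on the 3 Dnmt3a-/- GMP arrays (left, filled) and the 4 wild-type GMP arrays (right, open), numbered by replicate, with bars at the group means. Secondary granule genes stand highest on Dnmt3a-/- replicate 1 (9.47), and the eosinophil and immediate early lists split the wild-type arrays into replicates 1 and 2 against 3 and 4.

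Eosinophil genes did not pass in any of 8 measured members, although their median was 0.72. Their mean level was 7.24, 7.02 and 7.07 in Dnmt3a-/- GMP, against 5.88 and 5.57 on wild-type replicates 1 and 2 and 6.88 and 6.85 on replicates 3 and 4. The values thus followed the split of the wild-type arrays by immediate early genes. Prg2, the major basic protein, was at 12.25, 12.22 and 12.13, against 10.51, 10.26, 11.81 and 11.95 (1.07 ± 0.70, adjusted p = 0.415).

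Platelet and adhesion genes contributed further increases. All 21 measured megakaryocyte and platelet genes had a value above 0, as did 6523 of all 15781 genes, and the median was 0.42. Of the 21, 3 rose (0.900% of all genes did) and none fell. The 3 were the tetraspanin Cd9 (1.18 ± 0.22), the fibrinogen receptor subunit Itga2b (1.11 ± 0.19) and P-selectin, Selp (1.06 ± 0.18). Selp was at 5.59, 5.77 and 5.72 in Dnmt3a-/- GMP, against 4.79, 4.84, 4.24 and 4.67 in wild type. The platelet chemokine Pf4 was at 10.13, 8.82 and 8.97, against 7.68, 8.68, 6.39 and 6.16, a wide spread within wild type that left it short of the threshold (2.08 ± 0.52, adjusted p = 0.0703). Of 26 integrin and adhesion genes 6 rose (0.900% of all genes did) and none fell. The 6 were Cd9, Itga2b, Selp, the surface glycoprotein Thy1 (1.44 ± 0.19), E-cadherin, Cdh1 (1.02 ± 0.17), and Itgb2, the shared beta chain of leukocyte integrins (0.91 ± 0.19). Thy1 was at 7.02, 6.61 and 6.72, against 5.61, 5.50, 5.16 and 5.11, and it was the single gene of 21 on the T and NK cell list that passed. The call of Thy1 stood without any 1 array, those of Cd9, Itga2b, Selp and Cdh1 were lost without Dnmt3a-/- replicate 1 or 2, and that of Itgb2 without any array but wild-type replicates 1 and 2 (adjusted p up to 0.179).

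Vcam1, an adhesion molecule for integrins, was not on these lists and was at 8.05, 7.89 and 8.79 in Dnmt3a-/- GMP, against 5.77, 5.05, 6.26 and 6.38 in wild type (2.38 ± 0.39, adjusted p = 0.0117). Slc40a1, ferroportin, the exporter of iron, was at 7.46, 7.23 and 7.57, against 5.28, 4.58, 5.94 and 5.77 (2.03 ± 0.27, adjusted p = 0.00311). The increase was without overlap in 14 of the 15 probe sets of Vcam1 and in all 9 of Slc40a1. With the Y-linked mean as a covariate, neither gene passed. Vcam1 also fell short of the threshold without wild-type replicates 1 and 2 and with the brighter of the probe sets, where Slc40a1 passed.

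Several large increases lay outside the myeloid lists. Gdf3, a secreted factor of the TGF-beta family known from embryonic stem cells, was at 7.97, 7.96 and 8.11 in Dnmt3a-/- GMP, against 5.20, 4.70, 4.86 and 5.48 in wild type. Its Dnmt3a-/- values were close together and its increase was 2.95 ± 0.24 (7.74-fold, adjusted p = 1.40e-04). Apoc1, an apolipoprotein of plasma lipid particles, was at 8.84, 8.68 and 8.59, against 5.55, 6.38, 6.17 and 3.14 (3.39 ± 0.64, adjusted p = 0.0250), read by 1 probe set. Dnah8, a heavy chain of the axonemal dynein of sperm, was at 7.90, 7.94 and 7.39, against 5.27, 5.35, 6.15 and 6.14 (2.01 ± 0.24, adjusted p = 0.00161), and 96 of its 101 probe sets rose without overlap, so the increase ran along the gene. Nrg4, a ligand of the EGF family, was at 6.94, 6.69 and 6.98, against 4.95, 4.10, 4.93 and 4.99 (2.13 ± 0.20, adjusted p = 3.38e-04).

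Gpr84, a receptor for medium-chain fatty acids, rose by 2.45 ± 0.44, Plbd1, a phospholipase B-like protein, by 2.32 ± 0.31, Clec11a, a secreted growth factor of haematopoietic and bone cells, by 1.97 ± 0.38, and Ifi205, an interferon-inducible gene with near relatives, by 1.89 ± 0.33. Rps4l, a relative of a ribosomal protein gene, rose by 1.81 ± 0.25, and the uncharacterised genes 1700006J14Rik and Gm128 by 2.77 ± 0.37 and 1.70 ± 0.24. The glutathione transferase Gstm2 rose by at least 0.48, since its wild-type mean lay under the level taken as background, 3.19. The chemokine Ccl6 rose by 1.66 ± 0.34, the decoy receptor Il1r2, which binds interleukin 1 without a signal, by 1.13 ± 0.24, and Il18r1, a subunit of the interleukin 18 receptor, by 0.83 ± 0.19. The calls of Plbd1, Rps4l, 1700006J14Rik, Gm128, Gstm2, Gdf3, Dnah8, Nrg4, Vcam1 and Slc40a1 stood without any 1 GMP array. The call of Apoc1 was lost without any 1 Dnmt3a-/- array, that of Gpr84 without Dnmt3a-/- replicate 1 or 3 or wild-type replicate 4, that of Ifi205 without Dnmt3a-/- replicate 1 or 2, that of Clec11a without any array but wild-type replicates 2 and 3, that of Ccl6 without any but wild-type replicate 2, that of Il1r2 without any but Dnmt3a-/- replicate 2, and that of Il18r1 without any but Dnmt3a-/- replicate 3 (adjusted p up to 0.214).

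Of the 68 lower genes Nrg1, a ligand of ErbB receptors, had the largest decrease. It was at 4.88, 5.22 and 5.38 in Dnmt3a-/- GMP, against 7.33, 6.73, 7.39 and 7.60 in wild type (-2.10 ± 0.22, 4.30-fold lower, adjusted p = 6.81e-04), whereas its relative Nrg4 rose. Met, the receptor of hepatocyte growth factor, was at 6.46, 6.68 and 6.23, against 7.86, 7.60, 8.06 and 7.98 (-1.42 ± 0.22, adjusted p = 0.00924). Il6st, the gp130 chain through which interleukin 6 and its relatives signal, was at 7.04, 7.26 and 6.78, against 8.20, 8.44, 8.13 and 8.11 (-1.19 ± 0.19, adjusted p = 0.00862). The genotypes were apart in all 3 genes. Vdr, the vitamin D receptor, fell by 1.16 ± 0.20, Scpep1, a serine carboxypeptidase, by 1.17 ± 0.17, and Klrb1f, a lectin receptor known from natural killer cells, by 1.48 ± 0.31. Of 31 measured cytokine receptor genes Il6st and Csf1r fell, Il1r2 and Il18r1 rose, and the median was 0.11.

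**Figure D3:**
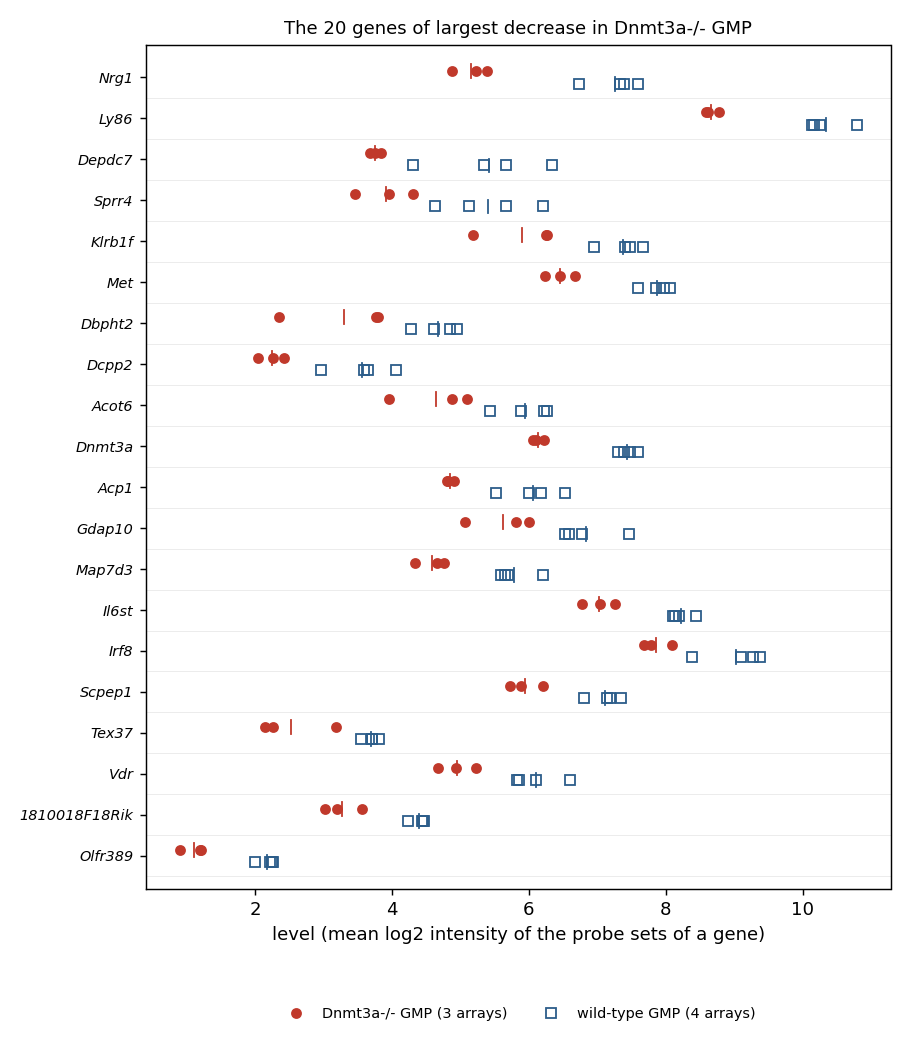
Level of the 20 genes of largest decrease (mean log2 intensity of a gene's probe sets, horizontal axis) on the 3 Dnmt3a-/- GMP arrays (filled circles) and the 4 wild-type GMP arrays (open squares), with vertical bars at the group means. Only called genes whose genotypes do not overlap were taken, so all Dnmt3a-/- arrays lie below all wild-type arrays by that choice. The decrease of Nrg1 (-2.10) leads.

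Monocyte and macrophage genes moved in both directions, with a median of -0.30. Of 20 measured members 3 were lower (0.431% of all genes were) and 1 higher (0.900%). Ly86, also called MD-1, the partner of the Toll-like receptor homologue Cd180, was at 8.59, 8.78 and 8.62 in Dnmt3a-/- GMP, against 10.17, 10.79, 10.14 and 10.26 in wild type (-1.68 ± 0.19, adjusted p = 0.00111). Csf1r, the receptor of macrophage colony-stimulating factor, was at 7.60, 7.71 and 7.51, against 8.68, 8.62, 8.29 and 8.31 (-0.87 ± 0.17, adjusted p = 0.0280). Irf8, a transcription factor that favours monocytes over neutrophils, was at 7.79, 8.09 and 7.68, against 9.10, 8.39, 9.27 and 9.37 (-1.18 ± 0.24, adjusted p = 0.0342), with wild-type replicate 2 nearest to the Dnmt3a-/- arrays. Tlr7, a sensor of single-stranded RNA, rose by 1.83 ± 0.31. Other members of the list did not pass, among them Ccr2 (-0.27), Klf4 (-0.42) and F13a1 (-0.80), while Lyz2 (0.76) and Cd68 (0.63) had values above 0. The mean level of the list was 7.18 to 7.24 on the Dnmt3a-/- arrays and 7.33 to 7.47 on the wild-type arrays.

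The other 10 of the 20 largest decreases were Depdc7, Sprr4, Dbpht2, Acot6, Acp1, Gdap10, Map7d3, 1810018F18Rik, Tex37 and Dcpp2, besides Olfr389, an olfactory receptor gene whose levels lay under background in both genotypes. Depdc7 was at 3.67, 3.75 and 3.83 in Dnmt3a-/- GMP, against 4.31, 6.33, 5.67 and 5.34 in wild type (-1.66 ± 0.33, adjusted p = 0.0322). Tex37 fell by at least 0.51 and Dcpp2 by at least 0.38, since their Dnmt3a-/- means lay under background, and the remaining 7 were between 2.19-fold (1810018F18Rik) and 2.82-fold (Sprr4) lower. Sprr4 and 1810018F18Rik are read by 1 probe set each.

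The calls of Nrg1, Ly86, Il6st and Scpep1 stood without any 1 GMP array. That of Met was lost without Dnmt3a-/- replicate 1, that of Vdr without Dnmt3a-/- replicate 1 or 3, that of Tlr7 without Dnmt3a-/- replicate 1, that of Csf1r without any 1 Dnmt3a-/- array or wild-type replicate 1, and those of Irf8 and Klrb1f unless it was wild-type replicate 2 that was left out (adjusted p up to 0.145). Of the other 10, 1810018F18Rik kept its call throughout, Map7d3 lost it without Dnmt3a-/- replicate 3, and the remaining 8 lost it in 3 to 7 of the 7 fits, each of them without Dnmt3a-/- replicate 1 (adjusted p up to 0.205).

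Of 48 measured transcription factors of myeloid and lymphoid cells 6 rose (0.900% of all genes did) and 2 fell (0.431%), with a median of 0.07. Id2, which blocks E proteins and is needed for dendritic and innate lymphoid cells, was at 7.15, 7.16 and 7.04 in Dnmt3a-/- GMP, against 5.28, 5.30, 5.56 and 5.58 in wild type (1.69 ± 0.19, adjusted p = 0.00111). Ets1, known from lymphoid cells, was at 8.07, 7.89 and 7.60, against 6.37, 5.97, 6.68 and 6.27 (1.53 ± 0.32, adjusted p = 0.0344). Gata1, of red cells, platelets and mast cells, was at 6.39, 6.09 and 6.16, against 5.42, 5.05, 5.02 and 4.91 (1.11 ± 0.24, adjusted p = 0.0386). It was also the single erythroid gene of 19 that passed. Gata2 and Gfi1 rose as given above, and Bcl11a, a repressor of fetal globin in human, rose by 0.70 ± 0.15. Besides Irf8, the repressor Zeb2 fell by 0.65 ± 0.13. Hlf, a stem cell factor, rose by 0.82 ± 0.18 as the single one of 31 stem and multipotent progenitor genes to pass. The call of Id2 stood without any 1 array. Ets1 lost its call unless wild-type replicate 3 was the one left out, that of Gata1 without any but wild-type replicate 1, that of Bcl11a without any but wild-type replicate 2, that of Zeb2 without any but Dnmt3a-/- replicate 2 and wild-type replicate 2, and that of Hlf without any but Dnmt3a-/- replicate 3 and wild-type replicate 4 (adjusted p up to 0.194).

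Gene lists tied to the functions of DNA methylation gave few calls. Of 17 measured genes for writing, reading or removing DNA methylation, Dnmt3a alone passed. Dnmt1 was at 9.17, 9.13 and 9.26 in Dnmt3a-/- GMP and at 9.25, 9.05, 9.18 and 9.21 in wild type (0.02 ± 0.11), Dnmt3b differed by 0.19 ± 0.13 and Tet2, which oxidises the methyl group, by -0.25 ± 0.23. None of 17 germline genes that methylation silences in other tissues passed (median -0.10), nor did any of 16 imprinted genes (median -0.15). The germline list, whose median also served as background, had a mean level of 3.10 to 3.27 in Dnmt3a-/- and 3.11 to 3.36 in wild type. Tex15, a meiosis gene outside that list, rose by at least 1.34, since its wild-type mean lay under background, and was named after its value was seen. None of 32 cell cycle genes (median -0.06) or 17 p53 targets (median -0.21) passed, and of 23 interferon-stimulated genes 1 fell, the GTPase Gbp3 (-1.03 ± 0.14, adjusted p = 0.00352), a call that stood without any 1 array. The lists of MHC class I, mitochondrial respiration, ribosomal protein, glycolysis, haem synthesis, cholesterol synthesis, coagulation, galectin and phagocyte genes held no call, with medians from 0.00 to 0.27. Values of each list that did not pass are no evidence that its genes were equal.

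The same deletion was compared in CMP, the preceding stage, on other arrays, although adjacent title numbers may mark Dnmt3a-/- CMP and GMP of 1 mouse. Of the 142 genes higher in GMP, 130 (91.5%) had a CMP change above 0, as did 42.7% of all genes, and 43 of them rose in CMP (0.919% of all genes did). Of the 68 lower genes, 61 (89.7%) had a CMP change below 0, as did 57.3% of all genes, and 9 fell (0.361%). The 52 genes called in both are 24.8% of the GMP calls and 25.7% of the 202 CMP calls (1.28% of all genes). The median CMP change was 0.63 over the higher and -0.35 over the lower genes, against 1.02 and -0.83 in GMP, the comparison in which these genes were called. All Dnmt3a-/- CMP arrays had low Y-linked signal too, against 1 of 3 wild-type CMP arrays.

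H2-Eb1 illustrated a shared change, with 10.23, 10.73 and 11.28 in Dnmt3a-/- CMP, against 8.01, 6.97 and 7.08 in wild-type CMP (3.40 in CMP and 3.20 in GMP). Nrg4 stood at the other end, with 4.49, 4.62 and 4.60 in Dnmt3a-/- CMP, against 4.23, 4.48 and 4.54 in wild-type CMP, a change of 0.15 where GMP had 2.13. Vcam1 had a CMP change of -0.41, Gfi1 of -0.56, Ets1 of -0.05, Cyp11a1 of 0.11 and Fcer1a of 0.97. For Csf1r the decrease was -1.71 in CMP and -0.87 in GMP. The test of the difference between the effects called no gene in limma (1083, 6.86%, had an unadjusted p below 0.05), with the lowest adjusted p at 0.0856 for Nrg4 and Olfr389, so none of these genes is shown to respond in 1 cell type only. That count was 23 without wild-type CMP replicate 1.

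**Figure D4:**
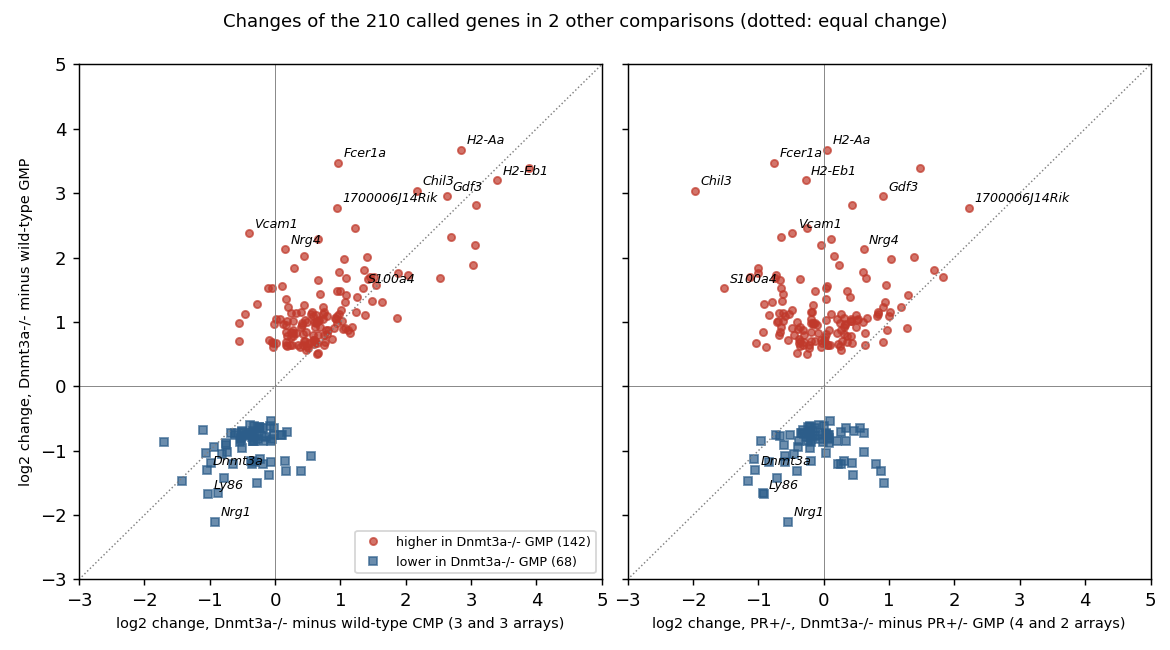
Log2 change of the 210 called genes in Dnmt3a-/- against wild-type GMP (vertical axis) plotted against the change in CMP (left, horizontal axis) and in the PR+/- background (right, horizontal axis), with genes higher in Dnmt3a-/- GMP as circles and lower as squares. In CMP 130 of 142 higher genes lie right of 0, and in PR+/- GMP 72 of 142.

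In GMP that carry PML-RARA the values of these genes centred near 0. Of the 142 higher genes, 72 (50.7%) had a change above 0 in PR+/-, Dnmt3a-/- against PR+/- GMP, as did 44.4% of all genes, and their median was 0.01. Of the 68 lower genes, 42 (61.8%) were below 0, as were 55.6% of all genes, with a median of -0.18. The 6 arrays of this comparison called no gene in limma (1256, 7.96%, had an unadjusted p below 0.05) and share no array with the others. H2-Eb1 was at 4.88, 5.47, 6.20 and 5.58 in PR+/-, Dnmt3a-/- GMP, against 5.39 and 6.23 in PR+/- GMP, and the genotypes overlapped. Chil3 was at 5.52, 5.98, 8.89 and 8.25, against 9.10 and 9.17, below PR+/- GMP on every array (-1.98, unadjusted p = 0.0655).

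Some genes kept their direction there. At an unadjusted p below 0.05, 25 of the 142 were higher (3.08% of all genes were) and 12 of the 68 lower (4.88%), and the genes named next were chosen after their values were seen. Dnah8 was at 7.82, 7.72, 8.07 and 8.02 in PR+/-, Dnmt3a-/- GMP, against 6.68 and 6.38 in PR+/- GMP (1.38, unadjusted p = 7.68e-05). Then 1700006J14Rik was at 8.04, 9.53, 8.98 and 9.70, against 6.55 and 7.13 (2.22), and Gm128 at 5.98, 5.92, 5.46 and 6.63, against 4.42 and 3.93 (1.82). Gdf3 was at 7.60, 7.48, 7.86 and 7.46, against 6.76 and 6.63 (0.91), with no overlap in any of these 4 genes. Ly86 (-0.92), Met (-0.71), Nrg1 (-0.54) and Klrb1f (-1.16) were lower. Another 12 higher genes had the opposite sign at that level, S100a4 among them, at 8.67, 8.85, 7.83 and 8.68 against 10.36 and 9.70 (-1.52).

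The difference between the effect in wild-type GMP and that in PR+/- GMP passed for 5 genes (0.0317%). They were H2-Eb1 (3.47), S100a4 (3.05), Prss34 (2.91), Alox5 (2.31) and Gdf3 (2.04), each the GMP change minus the PR+/- change on the log2 scale (adjusted p between 0.00769 and 0.0132). This test uses the arrays on which the 210 genes were called. Labels of the PR+/- arrays are written in a different style. The Y-linked mean was 6.87 and 6.73 on the PR+/- GMP arrays. It was 6.98, 3.12, 6.75 and 7.01 on the PR+/-, Dnmt3a-/- GMP arrays, unlike the low signal on all Dnmt3a-/- GMP arrays. PML-RARA, a difference between array runs and the Y-linked signal therefore cannot be told apart. Immediate early genes averaged 8.33 and 8.23 on PR+/-, Dnmt3a-/- replicates 1 and 2 and 6.01 and 6.04 on replicates 3 and 4, and Fcer1a split the same arrays, at 4.26 and 4.18 against 7.54 and 7.73.

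The 210 genes were not spread evenly over the chromosomes. Chromosome 12, which carries Dnmt3a close to its start, held 16 called genes of 481 measured (3.33%), the highest share, followed by chromosome 3 with 2.81% and chromosome 6 with 2.59%. Of the 100 measured genes nearest its start besides Dnmt3a, 8 were called (8%), against 7 of the other 380 (1.84%) and 194 of 15300 on other chromosomes (1.27%), a window chosen after the values were seen. The 8 were Dtnb, which precedes Dnmt3a in the order of measured genes, Id2, Adi1 and Tspan13, which rose, and Rnaseh1, Trappc12, Acp1 and Gdap10, which fell. Acp1, a low molecular weight phosphatase, was at 4.80, 4.82 and 4.90 in Dnmt3a-/- GMP, against 6.00, 6.52, 5.52 and 6.17 in wild type (-1.21 ± 0.24, adjusted p = 0.0314). Adi1, an enzyme of methionine salvage, was at 7.66, 7.64 and 7.58, against 6.39, 6.52, 6.93 and 6.58 (1.02 ± 0.14, adjusted p = 0.00410). The genotypes were apart in both.

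**Figure D5:**
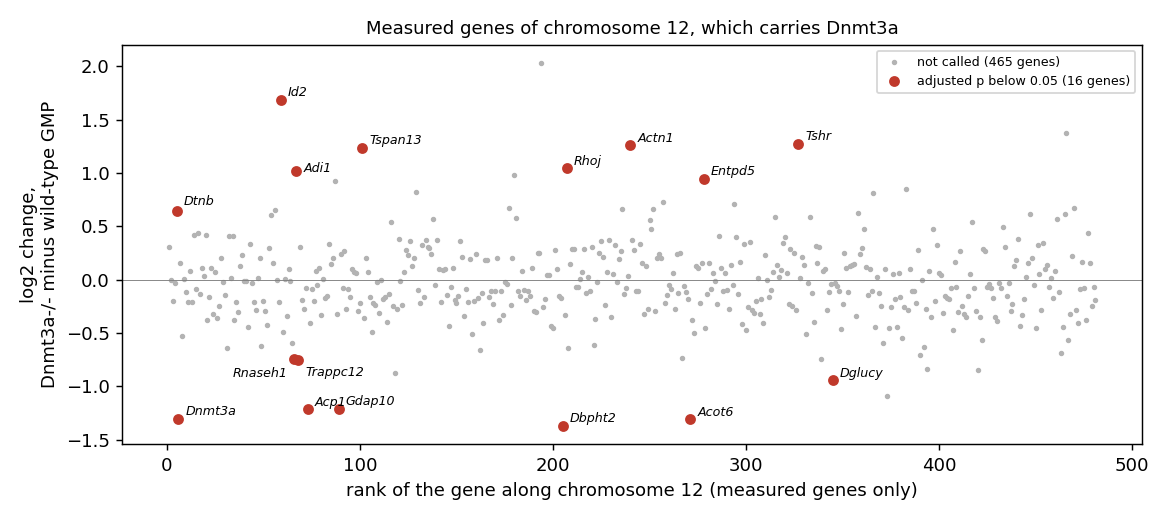
Log2 change in Dnmt3a-/- against wild-type GMP (vertical axis) of the 481 measured genes of chromosome 12 in their order along it (horizontal axis, rank), with the 16 called genes filled and named. Dnmt3a and 8 other called genes lie among the first 101, 4 of these 8 higher and 4 lower.

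Neighbouring genes were called together in 10 of 15719 adjacent pairs of measured genes, 7 of them in 1 direction. Of all single genes 1.33% were called, and whether pairs were more frequent than this share gives was not tested. Dtnb with Dnmt3a, Rnaseh1 with Adi1 and Adi1 with Trappc12, all on chromosome 12, went in opposite directions. The class II genes H2-Ab1, H2-Aa and H2-Eb1 form 2 of the 7 pairs in 1 direction. Others are S100a8 with S100a9 and both subunit genes of the interleukin 18 receptor, Il18r1 with Il18rap. Il6st and its neighbour Il31ra, a receptor that also belongs to the gp130 family, fell together (-1.19 and -0.70).

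The number of calls moved with single arrays and with the Y-linked signal. It was 49, 80 and 140 without Dnmt3a-/- GMP replicate 1, 2 or 3, and 128, 262, 194 and 103 without wild-type GMP replicate 1, 2, 3 or 4. With the Y-linked mean as a covariate it was 48, and 22 of the 71 genes chosen for naming passed. Among those that passed were H2-Aa, H2-Eb1, Cd74, H2-Ab1, Gdf3, Nrg4, Dnah8, S100a4, S100a6, Id2, Thy1, Nrg1, Ly86, Met and Gbp3. Fcer1a and Chil3 (both adjusted p = 0.0515), Vcam1, Slc40a1, Camp, Irf8 and Csf1r did not pass (adjusted p up to 0.172). Without wild-type replicates 1 and 2 the number of calls was 117, and Vcam1 was not among them. All 210 genes kept their sign in each of these fits. Where a fit only left out arrays, the sign was fixed beforehand for the 209 genes whose genotypes do not overlap.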

How the data were processed

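RNA was measured on Affymetrix mouse exon arrays, after amplification of 20 ng of total RNA with the WT-Ovation system, per the labels. The authors deposited 1 linear intensity per probe set and array, and RMA, Partek and build mm9 are named in the submitters' processing notes, with no role or version. Array medians were 53.0 to 56.8, so the deposited intensities were used without further scaling. For arrays, their number limits the precision, and detection was not given, so 3.19, the median over the germline list, served as background. A group mean under it gives a change as "at least", against that level.

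The log2 of each deposited intensity was averaged over the probe sets that carry 1 symbol alone (179496 of 194293), giving 15781 genes, with 9 probe sets in the median gene. Symbols come from the array annotation, updated through GRCm38.p6 names. Groups follow the titles. Dnmt3a-/- minus Wild-Type GMP was tested with limma 3.58.1 (lmFit, eBayes, two-sided) in R 4.3.3, in 1 fit of 13 arrays with both CMP groups, with Benjamini-Hochberg adjustment over all genes and a threshold of 0.05. The same fit gave CMP and the difference from CMP. PR+/- GMP were fitted on their 6 arrays, and the difference from them on 13 GMP arrays, a test added after seeing the data. Tested on data simulated with independent noise for each gene and array, the main fit recovered 75% of 2-fold and 99% of 4-fold changes. The simulation held no differences shared by many genes of an array, so recovery on the real arrays is not known.

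The comparison and the 39 gene lists were chosen with earlier results of these data known. Genes were named by rule: Dnmt3a, the 25 largest increases and 20 largest decreases among called genes without overlap, and each called list member. Replicates 1 and 2 of the PR+/- groups share a number, but their deviations correlated with r = 0.0774 and 0.0169, so no pairing was used. Adjacent title numbers of Dnmt3a-/- CMP and GMP did deviate together (r = 0.121, 0.139 and 0.171). They were fitted as pairs in an alternative. Others changed the pseudocount, normalisation, dim-gene filter, probe set summary, array weights, arrays in the fit and Y-linked signal.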

Additional observations from a re-analysis of the deposited data

Results flagged for a closer look

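In 6 cases 1 array lay far from the others of its group, among 71 genes looked at in the groups of 4 arrays. Chance gives about 1 in 20 groups, so about this many cases would be found by chance alone. Ms4a2 was at 6.50 on wild-type GMP replicate 3, the highest of its group, and Camp at 10.1 on wild-type replicate 1, also the highest. Nrg4 was at 4.10 on wild-type replicate 2, 1810018F18Rik at 4.23 on wild-type replicate 1 and Olfr389 at 1.99 on wild-type replicate 3, each the lowest. Olfr389 was at 2.70 on PR+/-, Dnmt3a-/- GMP replicate 1, under or near background on all these arrays.

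The test of the difference between the effects in wild-type and PR+/- GMP, on 13 GMP arrays, passed for 5 genes. It was added after seeing the data. PML-RARA, array runs and the Y-linked signal cannot be told apart in it. The change in Dnmt3a-/- GMP minus that in PR+/-, Dnmt3a-/- GMP was 3.47 for H2-Eb1, 3.05 for S100a4, 2.91 for Prss34, 2.31 for Alox5 and 2.04 for Gdf3. In H2-Eb1, S100a4, Prss34 and Alox5 the PR+/- change lay below 0, while in Gdf3 both changes lay above 0 (2.95 in GMP and 0.91 in PR+/- GMP).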

How the results depend on the processing

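All 210 genes kept their sign under each alternative that tests them, and Dnmt3a kept its call in all (changes from -1.60 to -1.13). Fits that only leave out or add arrays had to keep the sign of the 209 genes without overlap. The count of 210 became 48 with the Y-linked covariate (34 of them among the 210), 34 on the arrays whose Y-linked signal was low (18 shared), 75 with only the 7 GMP arrays, 99 with the median and 135 with the brighter of the probe sets, 15 with a minimum of 1.5-fold, 319 with a pseudocount of 16, 117 without wild-type GMP arrays 1 and 2, and 1733 with array weights (654 higher and 1079 lower). Leaving out 1 array gave 49 to 314. The difference between GMP and CMP called 0 genes, 48 with array weights, 10 without the 3 wild-type arrays of title numbers 21986 to 21988, 1 without wild-type GMP arrays 1 and 2, and 0 to 23 leaving out 1 array. In PR+/- GMP 0 genes were called, 21 with all 19 arrays in 1 fit, 1 with array weights and 0 with the replicate number as a block. The difference from PR+/- GMP gave 5, 25 with all 19 arrays, and 4 to 14 leaving out 1 array. Adjacent title numbers as pairs gave 215 calls. The median of the phagocyte list turned to -0.061 under quantile normalisation (0.10 otherwise). The cause of these shifts was not tested, and neither was the part of the smaller number of arrays in them. The fit on arrays of low Y-linked signal holds 1 wild-type GMP array, given the spread of the other groups.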
